A study of Homo sapiens with 12 samples.

Results

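The expression of 10 genes that make, desaturate and elongate fatty acids was followed in pancreatic ductal adenocarcinoma (PDAC) cell lines. They were chosen by name, as the genes whose symbol in the expression tables is SREBF1, ACLY, ACACA, ACACB, FASN, SCD, FADS1, FADS2, ELOVL5 or ELOVL6, among 48114 annotated genes. All 10 were found, each under 1 identifier, and all 10 passed the filter on low values (a mean of at least 10). The rule uses no expression value, though the members were chosen with earlier results of these data known.

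The study asked which RNA-binding proteins set the splicing pattern that tells basal-like from classical PDAC, and 2 of its candidates were QKI and RBFOX2. PANC-1, the line that the study uses as basal-like, received pooled siRNAs at 40 nM that target QKI (siQKI) or RBFOX2 (siRBFOX2), or a control siRNA (siCtrl, dose not given in the sources used here), and polyA RNA was sequenced after 48 h. RNA from HPAF-II, a line used as classical, was sequenced 48 h after siCtrl. Each of the 4 groups has 3 libraries, which the submitters call biological replicates. Both are tumour cell lines carried in culture, both knockdowns were made in PANC-1 only and are set against the same siCtrl libraries, and with 1 line per subtype the line and the subtype cannot be told apart. In bulk libraries such as these, fewer cells of a type and less RNA per cell cannot be told apart either.

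Cells make fatty acids from citrate. ACLY (ATP citrate lyase) splits citrate into acetyl-CoA, the acetyl-CoA carboxylases ACACA and ACACB turn acetyl-CoA into malonyl-CoA, and FASN (fatty acid synthase) builds palmitate from both. ELOVL6 lengthens palmitate to stearate and SCD (stearoyl-CoA desaturase) puts in the double bond that gives the monounsaturated fatty acids. FADS2 and FADS1 are the desaturases, and ELOVL5 an elongase, of the separate route that turns the essential dietary fatty acids into long polyunsaturated ones. SREBF1 encodes SREBP-1, the transcription factor best known for driving most of these genes. It is made as a membrane protein that has to be carried from the endoplasmic reticulum to the Golgi and cut there before it can enter the nucleus. Tumours, PDAC included, often make fatty acids themselves where normal tissue takes them up.

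The libraries matched their labels. In the siCtrl, siQKI and siRBFOX2 groups QKI fell from a mean normalized count of 25533 to 5034 with siQKI (log2 fold change -2.34, SE 0.057, adjusted p = 9.15e-13), and RBFOX2 fell from 15429 to 2095 with siRBFOX2 (-2.89, SE 0.089, adjusted p = 4.7e-11). RBFOX2 was also lower with siQKI, at 12642 (-0.29, adjusted p = 0.0207), a call that passed in 11 of 17 other settings. The 6 epithelial markers (KRT7, KRT8, KRT18, KRT19, EPCAM, CDH1) took 10943 to 11850 of each 1000000 counts in HPAF-II libraries, 2550 to 2715 in siCtrl and siQKI libraries and 2133 to 2290 in siRBFOX2 libraries. For the 3 mesenchymal markers (VIM, ZEB1, CDH2) the ranges were 1.09 to 16.2 in HPAF-II and 5138 to 5567 over PANC-1, and CDH2 was listed at 0 in all HPAF-II libraries. In PANC-1, keratins and VIM made up most of these sums, and single markers moved in both directions. CDH1 had 2.80 to 2.94 in siCtrl, 6.94 to 9.08 with siQKI and 3.95 to 4.77 with siRBFOX2. With siQKI, KRT18 was lower (758.5 to 806.0, against 816.9 to 896.8 in siCtrl), and so was KRT7 (3.325 to 3.976, against 3.978 to 4.478). KRT8 (1281.6 to 1371.1, against 1222.1 to 1260.3) and KRT19 (475.9 to 510.3, against 451.8 to 465.1) were higher, and EPCAM overlapped. VIM (5066.3 to 5218.3, against 5311.8 to 5499.1) and ZEB1 (23.5 to 25.8, against 26.9 to 30.6) were lower. CDH2 was higher (46.5 to 51.0, against 37.3 to 40.4). The part of these differences in the results on the members was not tested. INS of islet cells was listed at 0 in every library, PTPRC of leukocytes was above 0 only in siRBFOX2 replicates 2 (0.0632) and 3 (0.0139), and all 5 markers of other cell types together (with PECAM1, PRSS1 and ALB) stayed at or below 0.586. In HPAF-II, replicate 1 stood apart by VIM (15.2, against 0.283 in replicate 2 and 0.3003 in replicate 3), and replicate 3 stood apart by SREBF1 and FASN.

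The members lie on 6 chromosomes, in hg38 coordinates of the expression tables. SREBF1 is at chr17:17811334-17837002, ACACA at chr17:37084992-37406836, ACLY at chr17:41866917-41919022 and FASN at chr17:82078337-82098236. ACACB is at chr12:109116587-109268226, SCD at chr10:100347124-100364834, ELOVL5 at chr6:53267398-53349151 and ELOVL6 at chr4:110045846-110198615. FADS1 (chr11:61799626-61817003, minus strand) and FADS2 (chr11:61816203-61867354, plus strand) are neighbours that are read in opposite directions, and their spans overlap by 801 bases. Whether counting used strand is not stated, so reads from the 142 exon bases that both genes share in GENCODE 29 could have been given to either.

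The promoters of FADS1, ELOVL5 and ELOVL6 are shown because these 3 members differed most between the lines, and that of FADS2 because it lies beside FADS1 and was among the members that changed most with siQKI. They are RefSeq windows on GRCh38.p14 of 300 bases, 250 before and 50 after the start of transcription, written 5′ to 3′ on the strand of the gene. Capitals mark CACGTG (an E-box, bound by SREBP, USF and the glucose sensor MLXIPL), CCAAT (bound by NF-Y, a usual partner of SREBP) and GGGCGG (bound by SP1), and their reverse complements, so that both strands were searched. The FADS1 window is chr11:61816954-61817253 (minus), the FADS2 window chr11:61816154-61816453 (plus), the ELOVL5 window chr6:53348901-53349200 (minus) and the ELOVL6 window chr4:110198566-110198865 (minus). A second RefSeq window of FADS2, chr11:61815953-61816252 (plus), held 0 matches to these motifs and is not printed.
FADS1: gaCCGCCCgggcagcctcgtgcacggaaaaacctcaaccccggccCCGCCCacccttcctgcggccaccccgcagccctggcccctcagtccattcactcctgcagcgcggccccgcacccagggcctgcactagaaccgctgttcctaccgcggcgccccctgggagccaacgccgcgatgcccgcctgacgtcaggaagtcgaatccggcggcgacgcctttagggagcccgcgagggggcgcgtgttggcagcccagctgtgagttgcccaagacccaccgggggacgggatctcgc
FADS2: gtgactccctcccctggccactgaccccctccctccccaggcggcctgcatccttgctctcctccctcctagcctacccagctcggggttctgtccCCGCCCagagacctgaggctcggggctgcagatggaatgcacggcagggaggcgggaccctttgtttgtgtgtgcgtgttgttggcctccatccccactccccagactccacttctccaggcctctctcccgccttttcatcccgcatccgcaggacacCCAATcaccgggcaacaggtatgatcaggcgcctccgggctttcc
ELOVL5: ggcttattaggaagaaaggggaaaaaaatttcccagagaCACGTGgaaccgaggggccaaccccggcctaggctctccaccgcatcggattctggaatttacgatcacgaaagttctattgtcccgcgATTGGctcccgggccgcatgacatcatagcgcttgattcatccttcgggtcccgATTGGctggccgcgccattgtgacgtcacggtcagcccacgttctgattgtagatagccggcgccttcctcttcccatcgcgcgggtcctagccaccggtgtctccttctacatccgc
ELOVL6: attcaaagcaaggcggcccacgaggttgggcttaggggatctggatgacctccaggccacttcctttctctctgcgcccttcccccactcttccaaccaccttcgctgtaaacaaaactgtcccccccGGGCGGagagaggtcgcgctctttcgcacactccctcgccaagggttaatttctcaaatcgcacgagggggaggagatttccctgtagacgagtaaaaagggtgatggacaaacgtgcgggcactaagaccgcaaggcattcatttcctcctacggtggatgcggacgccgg

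RefSeq windows were at hand for 9 of the 10 members, 14 windows in all, and none was given for FASN. The sterol element TCACNCCAC was in 0 of the 14 windows, and in 1.13% of all 35116 windows. CACGTG was in the ELOVL5 window only, against 7.26% of all windows. CCAAT was in windows of 6 of the 9 members (8 of 14 windows, against 34.61% of all), and GGGCGG in windows of 8 members (10 of 14, against 44.95%). The ACLY windows overlap and hold the same CCAAT and GGGCGG sites, which were thus counted more than once. The shares of all are per window, while some members have several windows. The printed FADS1 window holds 72.0% G and C, FADS2 65.0%, and ELOVL5 and ELOVL6 57.3% each, where all windows together hold 57.5%. These are matches of letters, not measured binding, and a window without a match says nothing on sites outside it.

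Per kilobase of exon, the members spanned a wide range in PANC-1. In siCtrl libraries, values rescaled to a total of 1000000 and divided by exon length gave ELOVL5 the highest level, at 83.1 ± 0.945 per kb (SD, n = 3). ACLY followed at 51.3 ± 1.44 and SCD at 50.5 ± 4.48, and the libraries of these 2 genes overlapped. SREBF1 (28.95 ± 2.43) overlapped FASN (25.4 ± 2.10), and FASN overlapped FADS2 (22.9 ± 2.19). FADS1 (8.28 ± 0.205), ACACA (2.57 ± 0.0996), ELOVL6 (1.74 ± 0.0710) and ACACB (0.308 ± 0.0160) were each below the one before, with no overlap. With siQKI, FADS2 moved from the sixth to the fourth place, at 37.5 ± 3.78 per kb, in a run with SREBF1 and FASN in which neighbours overlapped.

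Most of the set was higher after QKI depletion. The test passed (limma, adjusted p under 0.05 over all 22544 genes tested) for 8 of the 10 members, all of them higher in siQKI, where 14.9% of all tested genes were called higher and 18.1% lower. ACACB and FADS2 rose most, 1.57-fold each, and FASN, ACACA, SCD, SREBF1, FADS1 and ELOVL6 rose by 1.13-fold to 1.25-fold. ACLY and ELOVL5 missed the threshold, and without siQKI replicate 1 the test passed for 5 members. In all 10 members the 3 siQKI libraries lay above the 3 siCtrl libraries, against 21.6% of tested genes. The tested genes reach down to a mean of 10, while the siCtrl means of the members ran from 1001.5 to 99668.5. No share was taken among genes of like level, so the part of level in these counts was not tested. The median log2 fold change was 0.245 over the members and 0.025 over all tested genes. Together the members took 0.129% to 0.142% of the library total in siCtrl and 0.162% to 0.174% in siQKI.

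**Figure D1:**
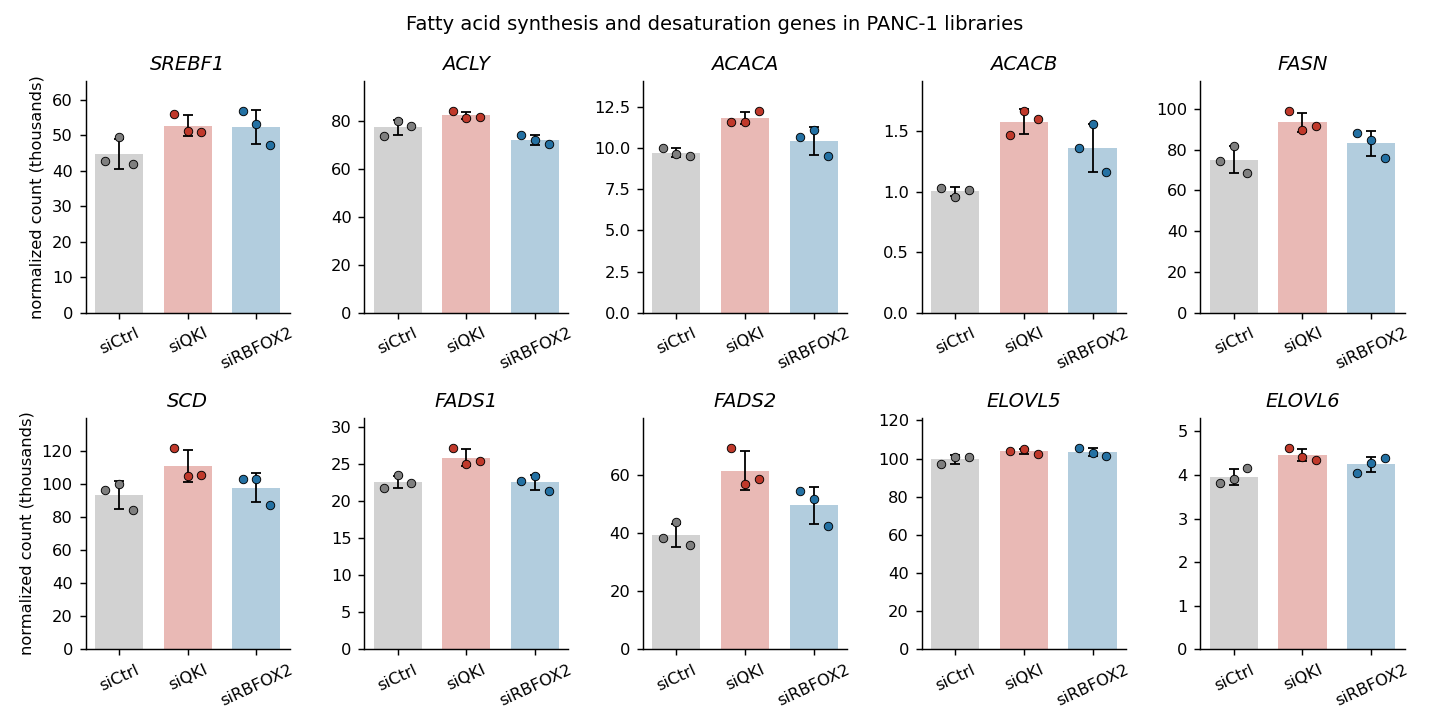
Normalized counts (axis in units of 1000) of the 10 members in the 9 PANC-1 libraries, on axes that start at 0. Points are libraries in the order of replicates 1 to 3, bars are means and error bars are SD (n = 3). The siQKI points lie above all siCtrl points in each of the 10 panels, while the ranges of siRBFOX2 and siCtrl overlap in 8 panels.

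Fewer were called after RBFOX2 depletion. With siRBFOX2 the test passed for 3 members, SREBF1, ACACB and FADS2, all higher, where 12.0% of tested genes were called higher and 14.5% lower. The libraries were apart in 2 members (ACACB and ELOVL5), against 18.2% of tested genes with siRBFOX2 libraries above siCtrl. The median log2 fold change was 0.10 over the members and 0.011 over all tested genes. The members took 0.138% to 0.158% of the library total. The 3 siRBFOX2 calls were not stable to single libraries, since 0 members passed without siRBFOX2 replicate 2, 1 passed without siRBFOX2 replicate 1 or siCtrl replicate 3, and 5 passed without siRBFOX2 replicate 3. That last library was the lowest of its group in 9 of the 10 members, with a median deviation of -0.127 on the log2 scale.

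A direct test between the knockdowns called 4 members higher in siQKI than in siRBFOX2 (ACLY, ACACA, FADS1 and FADS2) and 0 lower. Among all tested genes 9.93% were called higher and 11.6% lower. In 6 members (those 4 with FASN and SCD) the siQKI libraries lay above the siRBFOX2 libraries without overlap, against 17.1% of tested genes. Without siQKI replicate 1 or without siRBFOX2 replicate 3, 2 members were called.

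**Figure D2:**
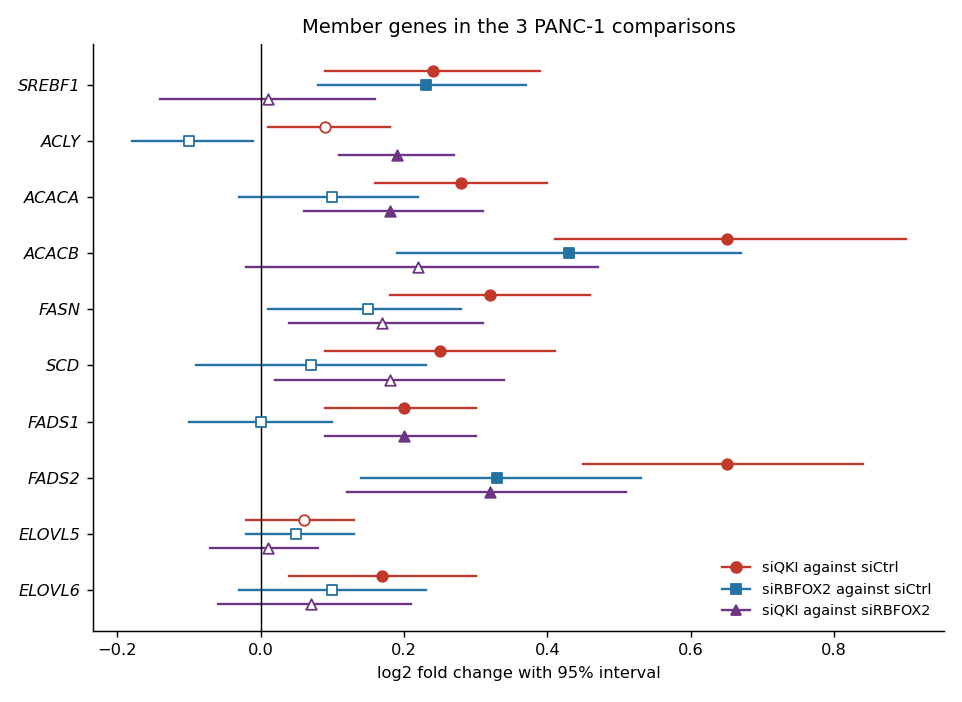
Log2 fold changes of the 10 members in the 3 PANC-1 comparisons, with 95% intervals from limma. Filled symbols passed an adjusted p of 0.05. ACACB and FADS2 stand at 0.65 with siQKI and at 0.43 and 0.33 with siRBFOX2, and the ELOVL5 intervals hold 0 in every comparison.

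The regulator was measured first. SREBF1, the gene of SREBP-1, had normalized counts of 42818, 49578 and 41965 in the siCtrl libraries, 56015, 51303 and 50803 with siQKI, and 56761, 53199 and 47227 with siRBFOX2. The siQKI libraries were all above siCtrl, and the siRBFOX2 libraries were too except for replicate 3, which fell below the highest siCtrl library. It rose by 0.24 on the log2 scale with siQKI (SE 0.069, adjusted p = 0.0154) and by 0.23 with siRBFOX2 (SE 0.069, adjusted p = 0.0248). Between the knockdowns it differed by 0.01 (95% interval -0.14 to 0.16). The siQKI call was lost without siCtrl replicate 1 (0.21, adjusted p = 0.061), siCtrl replicate 3 (0.19, 0.0773) or siQKI replicate 1 (0.19, 0.0736). The siRBFOX2 call was lost without siCtrl replicates 1 or 3 (0.20 and 0.18) or siRBFOX2 replicates 1 or 2 (0.17 and 0.21). The last 126 bases of SREBF1 in the tables are also the end of RAI1, which rose by 0.26 with siQKI (adjusted p = 0.000343) and was at -0.09 with siRBFOX2 (adjusted p = 0.191). The 2 genes share 0 exon bases in GENCODE 29, and the part of RAI1 reads in the SREBF1 values was not tested.

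Of the synthesis enzymes, the carboxylases and FASN rose with siQKI. ACACA makes the malonyl-CoA that FASN uses, and its counts were 10003, 9664 and 9499 in siCtrl, 11593, 11588 and 12235 with siQKI and 10646, 11110 and 9496 with siRBFOX2. The siQKI libraries lay clear of both other groups, and the siRBFOX2 libraries lay on both sides of siCtrl. ACACA rose by 0.28 with siQKI (SE 0.057, adjusted p = 0.00138), was at 0.10 with siRBFOX2 (adjusted p = 0.252), and was 0.18 higher in siQKI than in siRBFOX2 (adjusted p = 0.0329). That last call was lost without any 1 of the siQKI replicates (adjusted p 0.0551 to 0.128) and without siRBFOX2 replicate 3 (0.12, adjusted p = 0.151).

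ACACB is the isoform at the outer mitochondrial membrane, whose malonyl-CoA inhibits the entry of fatty acids into mitochondria. Its counts were 1033, 957.5 and 1014 in siCtrl, 1468, 1663 and 1602 with siQKI and 1357, 1558 and 1161 with siRBFOX2. Every knockdown library was above every siCtrl library, and the 2 knockdown groups overlapped. ACACB rose by 0.65 with siQKI (SE 0.114, adjusted p = 0.000369) and by 0.43 with siRBFOX2 (SE 0.114, adjusted p = 0.011). The latter was lost without siRBFOX2 replicate 2 (0.33, adjusted p = 0.0567), and the difference between the knockdowns was 0.22 (95% interval -0.02 to 0.47, adjusted p = 0.196).

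FASN had counts of 74295, 81852 and 68761 in siCtrl, 98834, 89797 and 91522 with siQKI and 88319, 84722 and 76058 with siRBFOX2. The siQKI libraries were the highest of the 9, and siRBFOX2 replicate 3 lay inside the siCtrl range. FASN rose by 0.32 with siQKI (SE 0.064, adjusted p = 0.00111) and was at 0.15 with siRBFOX2 (adjusted p = 0.106). The siRBFOX2 difference passed without siCtrl replicate 2 or without siRBFOX2 replicate 3 (0.21 in both). FASN lies within the span that the tables give to SLC16A3, a lactate exporter on the opposite strand, with 0 shared exon bases in GENCODE 29. SLC16A3 rose by 0.38 with siQKI (adjusted p = 1.67e-05) and fell by 0.14 with siRBFOX2 (adjusted p = 0.0439, passed in 5 of 17 other settings), and whether its reads entered the FASN values was not tested.

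ACLY, which supplies the acetyl-CoA, had counts of 73808, 80158 and 78024 in siCtrl, 84044, 81176 and 81792 with siQKI and 74308, 72122 and 70173 with siRBFOX2. The knockdown groups lay on opposite sides of the siCtrl mean, and the siQKI libraries were apart from siCtrl by a narrow gap. Its log2 fold changes were 0.09 with siQKI (adjusted p = 0.093) and -0.10 with siRBFOX2 (adjusted p = 0.0818). The difference between the knockdowns passed (0.19, SE 0.039, adjusted p = 0.00261), and it passed under all 17 other settings of the fit. Without siCtrl replicate 1, ACLY passed as lower with siRBFOX2 (-0.13, adjusted p = 0.0305).

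Among the desaturases FADS2 changed most. FADS2 puts in the double bond that starts the polyunsaturated route, and had counts of 38286, 43747 and 35899 in siCtrl, 69360, 56900 and 58519 with siQKI and 54402, 51803 and 42510 with siRBFOX2. All siQKI libraries were above all other PANC-1 libraries, and siRBFOX2 replicate 3 lay under the highest siCtrl library. FADS2 rose by 0.65 with siQKI (SE 0.092, adjusted p = 5.8e-05), by 0.33 with siRBFOX2 (SE 0.092, adjusted p = 0.0141), and was 0.32 higher in siQKI than in siRBFOX2 (adjusted p = 0.0217). The siRBFOX2 call was lost without siCtrl replicate 3 (0.27), siRBFOX2 replicate 1 (0.26) or siRBFOX2 replicate 2 (0.30). The difference between the knockdowns was lost without siQKI replicate 1 (0.23) or siRBFOX2 replicate 3 (0.21).

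FADS1, the next desaturase of that route and the neighbour of FADS2, had counts of 21763, 23438 and 22414 in siCtrl, 27133, 24944 and 25345 with siQKI and 22746, 23418 and 21398 with siRBFOX2. The siQKI libraries were apart from both other groups, which overlapped each other. FADS1 rose by 0.20 with siQKI (SE 0.048, adjusted p = 0.00535) and was 0.20 higher in siQKI than in siRBFOX2 (adjusted p = 0.00787). With siRBFOX2 its fold change was -0.00 (95% interval -0.10 to 0.10).

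SCD had counts of 96065, 99531 and 83940 in siCtrl, 121582, 104747 and 105408 with siQKI and 102568, 102852 and 87367 with siRBFOX2. Replicate 1 was well above the other siQKI libraries, and 2 of the siRBFOX2 libraries were above siCtrl with the other inside its range. SCD rose by 0.25 with siQKI (SE 0.074, adjusted p = 0.0179) and was at 0.07 with siRBFOX2 (adjusted p = 0.579). The siQKI call was lost without siCtrl replicate 3 (0.17, adjusted p = 0.101) or siQKI replicate 1 (0.18, adjusted p = 0.096).

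The elongases came last. ELOVL5, of the polyunsaturated route, had counts of 96939, 101034 and 101033 in siCtrl, 103766, 105293 and 102349 with siQKI and 105590, 103192 and 101554 with siRBFOX2. The knockdown libraries were all above siCtrl by narrow margins and overlapped each other. Its log2 fold changes were 0.06 with siQKI (95% interval -0.02 to 0.13, adjusted p = 0.225) and 0.05 with siRBFOX2 (95% interval -0.02 to 0.13, adjusted p = 0.298). ELOVL6, which acts on palmitate, had counts of 3810, 3908 and 4160 in siCtrl, 4619, 4407 and 4351 with siQKI and 4053, 4274 and 4394 with siRBFOX2. The siQKI libraries were above siCtrl, and the siRBFOX2 libraries overlapped both. ELOVL6 rose by 0.17 with siQKI (SE 0.062, adjusted p = 0.0452), a call that passed in 9 of 17 other settings and was lost without siCtrl replicate 1 or 2 or any 1 of the siQKI replicates (0.14 to 0.19, adjusted p 0.0676 to 0.144). With siRBFOX2 it was at 0.10 (adjusted p = 0.283).

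Pairs of enzymes were also set against each other within a library, where the size factor cancels. These ratios were chosen after the values were seen and carry no test. The FADS2 to FADS1 ratio of normalized counts was 1.74 ± 0.133 in siCtrl, 2.38 ± 0.152 with siQKI and 2.20 ± 0.203 with siRBFOX2 (SD, n = 3). It was higher in each knockdown library (1.99 to 2.56) than in each siCtrl library (1.60 to 1.87). The ACACA to ACACB ratio was 9.71 ± 0.364 in siCtrl, 7.50 ± 0.480 with siQKI and 7.72 ± 0.538 with siRBFOX2, and both knockdowns lay below siCtrl without overlap. ELOVL5 to ELOVL6 averaged 25.2 in siCtrl, 23.3 with siQKI and 24.4 with siRBFOX2, and the siQKI libraries (22.5 to 23.9) lay just below siCtrl (24.3 to 25.9). FASN to ACACA averaged 7.71, 7.92 and 7.98 in the same order, with overlap between the groups.

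**Figure D3:**
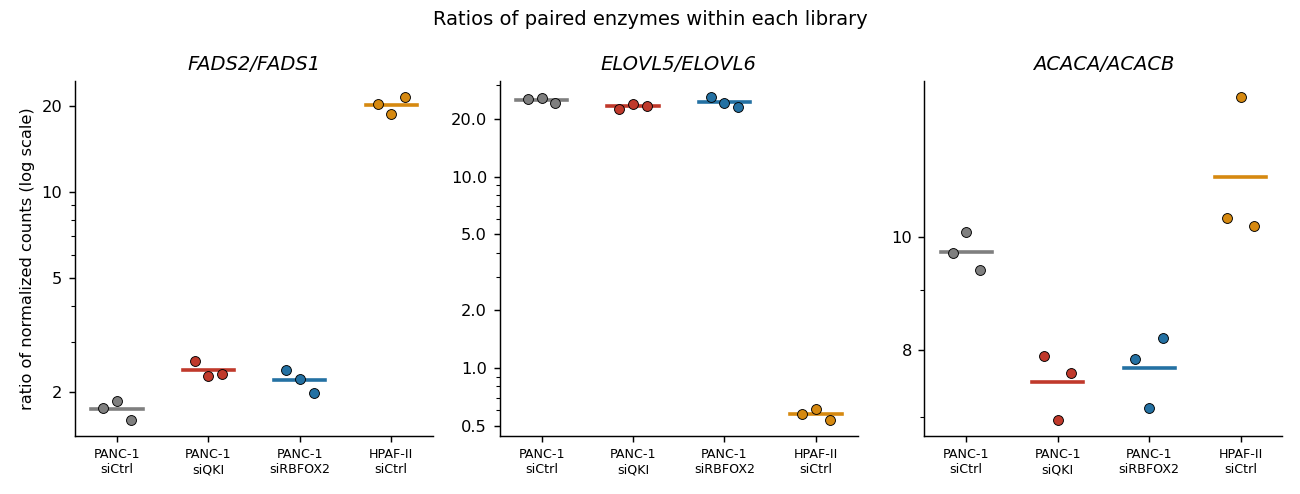
Ratios of normalized counts within each library (points) with group means (lines), on log axes. FADS2 to FADS1 averages 1.74 in PANC-1 siCtrl and 20.1 in HPAF-II, ELOVL5 to ELOVL6 averages 25.2 and 0.574, and ACACA to ACACB is lower in both knockdowns than in siCtrl.

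Over the 9 PANC-1 libraries the members varied together in part. The 45 pairs of members had Pearson correlations of 0.24 to 0.98 in their log2 levels, with a median of 0.67. Deviations from the group means, which leave out the knockdowns, gave -0.58 to 0.97 with a median of 0.40, and 38 of the 45 pairs were positive. The libraries share scaling and depth, so these values describe the libraries and carry no test. The genes most like SREBF1 were TEX45 (r = 0.98), CDH3, which encodes P-cadherin (0.97), a gene without a symbol (0.962), the antisense transcript DHRS4-AS1 (0.96) and another gene without a symbol (0.944). Of 22543 genes ranked in this way, FASN was in place 81 (r = 0.894), FADS2 in place 93 (0.885), ELOVL5 in place 462 and SCD in place 599, while ACLY was in place 8041 (0.241).

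The genes around the pathway moved in both directions. From 10 lists of 77 related genes, 76 were tested, and 21 were called higher and 25 lower with siQKI, 20 and 17 with siRBFOX2. In total 46 of the 76 were called with siQKI and 37 with siRBFOX2. Over all tested genes, 14.9% were called higher and 18.1% lower with siQKI, and 12.0% and 14.5% with siRBFOX2. The related genes were thus called more often than all tested genes, in both directions. The tested genes reach down to a mean of 10, and no share was taken among genes of like level. The counts by list below stand beside the shares of all tested genes. The median log2 fold changes over the 76 genes were -0.03 and 0.05. The tested members of the lists are drawn beside the 10 members in the plot of log2 fold changes by list.

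**Figure D4:**
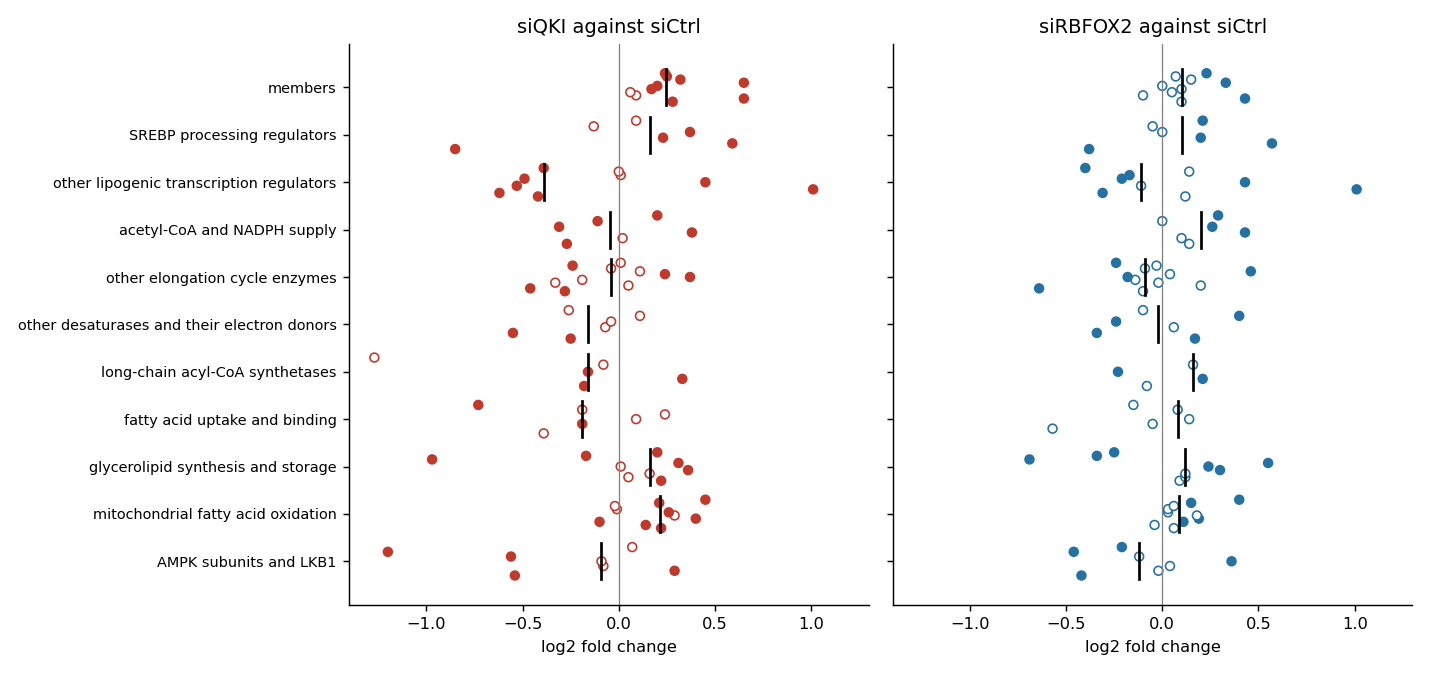
Log2 fold changes of the members and of 10 lists of related genes with siQKI (left) and siRBFOX2 (right). Points are genes, filled where the adjusted p passed 0.05, and vertical bars are medians. The member median is 0.245 with siQKI. FABP4 with siQKI (-3.49), and CD36 (2.30), SLC27A2 (1.38) and ACSL6 (1.35) with siRBFOX2, lie outside the axis.

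The list of SREBP processing holds 6 genes, of which 3 rose and 1 fell in each knockdown. It has SREBF2, the gene of SREBP-2, beside genes of proteins that hold, carry and cut SREBP. SREBF2 averaged 24776 in siCtrl, 26284 with siQKI and 28632 with siRBFOX2. It was among those that rose with siRBFOX2, where all libraries lay above siCtrl, while the siQKI libraries overlapped siCtrl. INSIG1 holds SREBP in the endoplasmic reticulum and is itself a classic SREBP target. Its counts were 40033, 42404 and 39102 in siCtrl, 22977, 23126 and 21485 with siQKI and 32021, 29772 and 31509 with siRBFOX2, with no overlap between any of the groups. It fell by 0.85 with siQKI (SE 0.046, adjusted p = 3.91e-09) and by 0.38 with siRBFOX2 (adjusted p = 2.15e-05). INSIG2, which does the same task, rose by 0.59 and 0.57 (adjusted p = 0.000637 and 0.0013). MBTPS1, the protease of the first cut, rose by 0.23 and 0.20, and MBTPS2, of the last cut, rose by 0.37 with siQKI and was at -0.00 with siRBFOX2.

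Other transcription regulators of lipid synthesis mostly fell with siQKI, 5 of the 9 tested against 2 that rose (with siRBFOX2, 4 and 2). MLXIPL (ChREBP), which senses glucose and also drives lipogenic genes, rose by 1.01 in both knockdowns from a low mean of 410.5 (adjusted p = 0.00226 and 0.00315). Its partner MLX fell by 0.62 and 0.31. PPARG, the lipid receptor, fell by 0.49 and 0.21, and the oxysterol receptor NR1H2 fell by 0.53 with siQKI and was at -0.11 with siRBFOX2 (adjusted p = 0.106). THRSP was not tested, because its mean was below the filter.

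Genes that supply acetyl-CoA and NADPH gave 2 higher and 3 lower of 6 with siQKI, and 3 higher and 0 lower with siRBFOX2. IDH1 rose by 0.38 and 0.43, and the citrate carrier SLC25A1 by 0.20 and 0.29. ME1, the cytosolic malic enzyme, fell by 0.31 with siQKI and rose by 0.26 with siRBFOX2. ACSS2, which makes acetyl-CoA from acetate, fell by 0.27 with siQKI and was at 0.14 with siRBFOX2.

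Among the other elongation enzymes, 2 of 11 were called higher and 3 lower with siQKI, and 1 and 3 with siRBFOX2. ELOVL2, an elongase of polyunsaturated fatty acids, fell by 0.46 and 0.64 (adjusted p = 6.17e-06 and 5.11e-07), from 20138 to 14598 and 12897. ELOVL1 fell by 0.28 with siQKI, HACD1 rose by 0.37 with siQKI and fell by 0.18 with siRBFOX2, and HACD3 rose by 0.46 with siRBFOX2. Of the other desaturases and their electron donors, 0 of 6 rose and 2 fell with siQKI, and 2 rose and 2 fell with siRBFOX2. The cytochrome CYB5B fell by 0.55 and 0.34, CYB5A fell by 0.25 and rose by 0.17, FADS3 rose by 0.40 with siRBFOX2 and DEGS1 fell by 0.24 with siRBFOX2.

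Acyl-CoA synthetases, which activate fatty acids, gave 1 higher and 2 lower of 5 with siQKI (1 and 1 with siRBFOX2). ACSL3 rose by 0.33 and 0.21, ACSL4 fell by 0.16 and 0.23, and ACSL1 fell by 0.18 with siQKI. Uptake and binding genes gave 0 higher and 3 lower of 7 with siQKI and none called with siRBFOX2. SLC27A4, a fatty acid transporter, fell by 0.73 with siQKI (adjusted p = 4.4e-06) and FABP5 by 0.19. FABP4 was called too, from values near the filter of 53.6, 13.0 and 56.3 in siCtrl and 0, 29.7 and 0 with siQKI, and that call passed in 4 of 16 other settings.

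In glycerolipid synthesis and storage, 4 of 9 genes were called higher and 2 lower with siQKI, 3 and 3 with siRBFOX2. PLIN2, which coats lipid droplets and whose level tracks the stored lipid in many cells, had counts of 7422, 8142 and 8722 in siCtrl, 4186, 4217 and 3973 with siQKI and 4968, 5009 and 5034 with siRBFOX2. All knockdown libraries were below all siCtrl libraries, and it fell by 0.97 and 0.69 (adjusted p = 2.43e-08 and 1.52e-06). GPAM, the first enzyme of triglyceride synthesis, rose by 0.36 and 0.30, LPIN2 rose by 0.31 and 0.55, and PLIN3 fell by 0.17 and 0.34.

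Of the genes of mitochondrial oxidation, 6 of 10 were called higher and 1 lower with siQKI, and 4 higher and 0 lower with siRBFOX2. CPT1A, the carnitine transferase that malonyl-CoA inhibits, rose by 0.40 and 0.19 (adjusted p = 1.79e-06 and 0.00238). MLYCD, which breaks malonyl-CoA down, rose by 0.45 and 0.40, and CPT2 and ACAA2 rose by 0.26 and 0.22 with siQKI. Of the 7 genes of AMPK, the kinase that inhibits both carboxylases, and its activator LKB1, 1 rose and 3 fell in each knockdown. PRKAG2 fell by 1.20 with siQKI (SE 0.042, adjusted p = 4.45e-11), from 32708 to 14279, and by 0.46 with siRBFOX2. PRKAG1 fell by 0.56 with siQKI, PRKAA1 by 0.54 and 0.42, and PRKAB2 rose by 0.36 with siRBFOX2. Among the related genes named, the calls of CYB5A and PRKAB2 with siRBFOX2 and of ACSL1 with siQKI passed in 12 of 17 other settings, and those of MLYCD in 13.

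The lines differed far more than the knockdowns, in 3 members. The authors normalized the tables of the 2 lines apart from each other, so values were rescaled to a total of 1000000 and described without a test, and a gene was called apart at 2-fold. By that rule ELOVL6 was higher in HPAF-II and FADS1 and ELOVL5 were lower, where 27.2% of 24673 genes compared were higher and 25.2% lower. Libraries did not overlap in 7 members, 4 higher and 3 lower, against 63.7% of genes compared. The median log2 ratio was -0.06 over the members and 0.08 over all genes compared.

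**Figure D5:**
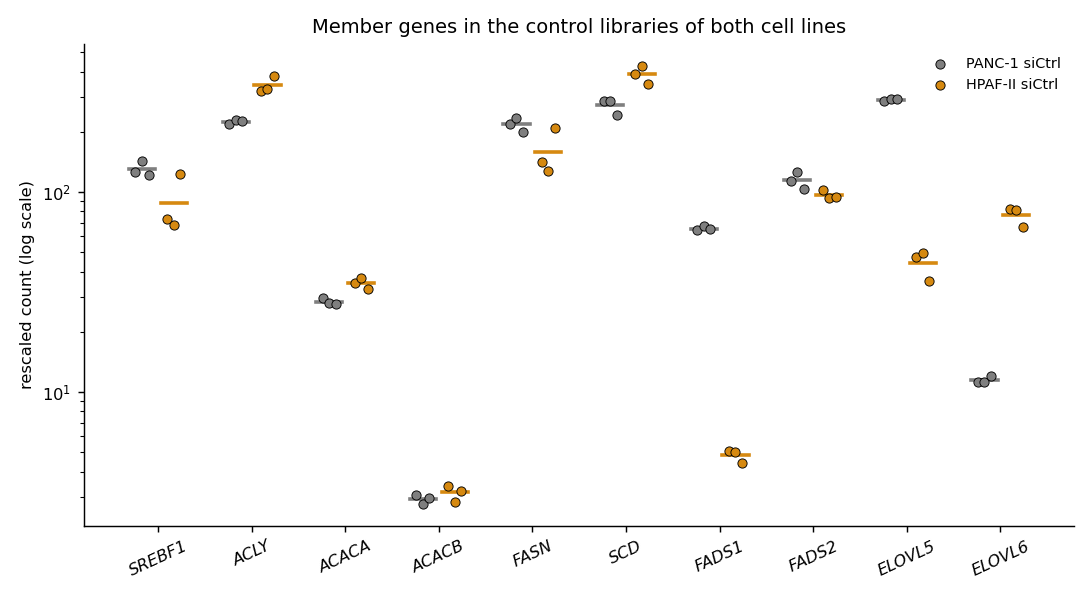
Rescaled counts of the 10 members (per 1000000, log axis) in the 3 siCtrl libraries of PANC-1 and of HPAF-II. Points are libraries and lines are means. FADS1 averages 65.5 in PANC-1 and 4.83 in HPAF-II, ELOVL5 290 and 44.2, and ELOVL6 11.5 and 76.7, while the other members lie within 2-fold of each other.

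The 2 members that were lower in HPAF-II by 2-fold, FADS1 and ELOVL5, belong to the polyunsaturated route. FADS1 had rescaled counts of 64.2, 67.3 and 64.9 in PANC-1 siCtrl and 5.07, 5.01 and 4.42 in HPAF-II, a 13.52-fold lower mean (log2 ratio -3.76). ELOVL5 had 286.1, 290.2 and 292.6 in PANC-1 and 47.1, 49.7 and 35.7 in HPAF-II, 6.56-fold lower (-2.71). FADS2, whose start lies within the FADS1 span, had 113.0, 125.6 and 104.0 against 102.7, 93.7 and 94.5, a log2 ratio of -0.24 with a narrow gap between the groups. The FADS2 to FADS1 ratio was 20.1 ± 1.35 in HPAF-II against 1.74 ± 0.133 in PANC-1. ELOVL2, the other elongase of this route, was listed at 0 in all 3 HPAF-II libraries and had 55.8 to 60.0 in PANC-1. FADS3, from the list of other desaturases, had 1.90 ± 0.542 against 11.95 ± 0.458. These 2 were not alone in their lists. By the 2-fold rule, 4 of the other elongation enzymes were lower in HPAF-II and 2 higher. Of the other desaturases and their electron donors, 3 were lower and 2 higher.

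Of the saturated and monounsaturated route, ELOVL6, ACLY, ACACA and SCD were higher in HPAF-II without overlap. ELOVL6 had 11.2, 11.2 and 12.1 in PANC-1 and 82.2, 81.3 and 66.6 in HPAF-II, 6.66-fold higher (2.74). The ELOVL5 to ELOVL6 ratio was 25.2 ± 0.813 in PANC-1 and 0.574 ± 0.0371 in HPAF-II. ACLY had 217.8, 230.2 and 226.0 against 321.2, 325.9 and 380.8 (1.52-fold), and SCD had 283.5, 285.9 and 243.1 against 387.2, 426.9 and 348.4 (1.43-fold). ACACA had 28.3 ± 1.10 against 35.1 ± 2.24 and ACACB 2.91 ± 0.151 against 3.15 ± 0.292, the latter with overlap. SCD5, the other stearoyl-CoA desaturase, was listed at 0 in HPAF-II replicates 1 and 2 and had 0.132 in replicate 3, against 2.39 to 2.75 in PANC-1.

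SREBF1 and FASN depended on a single HPAF-II library. SREBF1 had 126.4, 142.4 and 121.5 in PANC-1 and 73.5, 68.3 and 122.8 in HPAF-II, and FASN had 219.3, 235.1 and 199.1 against 141.1, 126.7 and 209.1. Replicate 3 lay inside the PANC-1 range for both genes, and the other 2 libraries lay below it. The log2 ratios were -0.56 and -0.45, and without replicate 3 they were -0.88 and -0.70. SLC16A3, which spans FASN, stood out in the same library, with 37.0, 37.7 and 137.3, against 296.0 to 330.2 in PANC-1. Its part in the FASN values was not tested.

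The order of levels per kilobase in HPAF-II was led by ACLY (78.3 ± 7.57) and SCD (72.3 ± 7.32), whose libraries overlapped. SREBF1 (19.6 ± 6.70), FADS2 (19.5 ± 0.999) and FASN (18.6 ± 5.14) came next and overlapped one another, and ELOVL5 (12.7 ± 2.12) and ELOVL6 (11.6 ± 1.32) overlapped as well. ACACA (3.19 ± 0.204), FADS1 (0.611 ± 0.0458) and ACACB (0.333 ± 0.0309) were each apart from the one before. ELOVL5 thus held the first place in PANC-1 and the sixth in HPAF-II.

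Of the related genes, ACSL5, SLC27A2, PLIN2 and ELOVL2 were among those further apart between the lines than any member, and these and the next were chosen after their values were seen. ACSL5, an acyl-CoA synthetase of the gut lining, had 1.93 ± 0.322 in PANC-1 and 273.4 ± 32.1 in HPAF-II, and SLC27A2, a fatty acid transporter, 0.0753 ± 0.0716 and 41.0 ± 8.60. PLIN2 had 23.5 ± 1.68 in PANC-1, was listed at 0 in HPAF-II replicates 2 and 3 and had 0.0353 in replicate 1. MLXIPL (1.20 ± 0.402 and 16.0 ± 1.99), ACSS2 (8.50 ± 0.190 and 59.1 ± 1.82) and INSIG2 (7.44 ± 0.363 and 56.7 ± 14.6) were higher in HPAF-II. QKI itself had 14.5 ± 2.76 in HPAF-II and 74.2 ± 3.27 in PANC-1, and RBFOX2 30.7 ± 3.72 and 44.8 ± 0.416.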

How the data were processed

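PolyA RNA-seq libraries of PANC-1 (3 groups of 3) and HPAF-II (3) were analysed. Per the processing notes and methods of the submitters, the reads were aligned to hg38 with STAR, and gene counts of the FAST DB annotation were made. The notes give STAR 2.7.5a, while the methods list another version. The deposited signal values are gene counts scaled by the authors with DESeq2 size factors, over the 9 PANC-1 libraries and, separately, over the 3 HPAF-II libraries. FastQC, Picard and SAMtools are named too. All values of a library were whole multiples of 1 step (within 0.01), which gave PANC-1 size factors of 0.877 to 1.147 and HPAF-II size factors of 0.81 to 1.09. Because 82.1% to 84.8% of the values of 1 to 30 steps were multiples of 3, steps were not taken as reads, no count test was used and the depth in reads is unknown. The PANC-1 totals were 292248837 to 376192091 steps, those of HPAF-II 226697015 to 309720537 steps, and precision was taken from the replicates.

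For the 3 comparisons within PANC-1, limma 3.58.1 (R 4.3.3) with a trend of variance on level was fitted once to log2(normalized count + 1) of the 9 libraries, over the 22544 genes whose mean reached 10. On this scale the added 1 shrinks changes of genes with low values, while a library at 0 can enlarge them. FABP4 stands at -3.49 with siQKI, from means of 40.98 in siCtrl and 9.884 with siQKI. CD36 too had a siCtrl library at 0 (replicate 2). P-values were two-sided and adjusted by the Benjamini-Hochberg method over all genes tested. They set a difference between group means against the spread between replicate libraries, pooled over the 9 PANC-1 libraries. The script was tested on simulated data. HPAF-II and PANC-1 siCtrl libraries, normalized apart, were rescaled to a total of 1000000, and ratios carry a pseudocount of 0.01. Levels per kilobase used exon lengths of GENCODE 29. Python 3.11.15 with pandas 2.3.3, numpy 2.4.6 and matplotlib 3.10.9 gave the summaries.

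The members and gene lists were chosen with earlier results of these data known. Named are all 10 members, up to 4 called genes of each list with the largest change in either knockdown, and the 5 genes most like SREBF1. Overlapping genes, the enzyme ratios and the related genes in the comparison of lines were chosen after their values were seen. The other settings tried were a pseudocount of 0.1 or 10, a minimum mean of 50 or none, upper-quartile rescaling, a fit of the compared groups alone, the replicate number as a block, no trend, an adjusted p under 0.01, a 1.5-fold limit between lines and each library left out. No promoter of FASN was used here.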

Additional observations from a re-analysis of the deposited data

How the results depend on the processing

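Of 540 recomputed log2 fold changes of the members, 477 kept direction and call, 13 passed only in the alternative, 42 no longer passed and 8 changed sign. The calls of ACACA, ACACB, FASN, FADS1 and FADS2 with siQKI passed in all 17 other settings of the fit, SCD in 14, SREBF1 in 13 and ELOVL6 in 9. With siRBFOX2, ACACB passed in 16, FADS2 in 13 and SREBF1 in 12. For siQKI, 8 members were called, 5 without the mean-variance trend, 5 at an adjusted p under 0.01, 10 with upper-quartile rescaling (ACLY at 0.15 and ELOVL5 at 0.12 then passed) and 5 to 8 with a library left out. For siRBFOX2, 3 were called, 1 without the trend, 0 at an adjusted p under 0.01 and 0 to 5 with a library left out. For siQKI against siRBFOX2, 4 were called, 1 without the trend, 2 at an adjusted p under 0.01 and 2 to 5 with a library left out. The changes of sign were all in differences that passed under no setting tried. FADS1 with siRBFOX2 was at 0.03 with upper-quartile rescaling and -0.03 to 0.03 with a library left out, and SCD with siRBFOX2 was then at -0.01 (without siCtrl replicate 3) to 0.14. Between the knockdowns, again with a library left out, SREBF1 was at -0.06 (without siRBFOX2 replicate 3; -0.03 without siQKI replicate 1) to 0.07, and ELOVL5 at -0.01 (without siQKI replicate 2 or siRBFOX2 replicate 3) to 0.02. The causes were not tested.

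Replicate numbers did not pair the libraries, since deviations of same-numbered libraries correlated from -0.0325 to 0.0235, over 0.1 in 0 of 9 pairs. With the replicate number as a block, 7 members were called with siQKI (ELOVL6 was lost, adjusted p = 0.058), 3 with siRBFOX2 and 6 between the knockdowns (FASN and SCD were added). Between the lines, 3 members stood apart by 2-fold under each alternative, and 4 at 1.5-fold. Without rescaling, the median log2 ratio of all genes moved from 0.08 to -0.195, and ACACB moved from 0.11 to -0.17. The unknown number of reads behind a step limits all values, and groups of 3 limit the smaller changes.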
